A study of Mus musculus with 8 samples.

Results

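Among 4 cultures of mouse neural progenitors in which the transcriptional repressor Bcl6 had been switched on, 2 differed from the other 2 in a defined group of genes. Induced cultures 1 and 2 are set here against induced cultures 3 and 4. A gene belonged to the group when both libraries of one side lay at least 2-fold above both libraries of the other side and its mean over the 4 induced libraries was at least 2 CPM (the usual depth-scaled unit, here the deposited value divided by its library total). The members were thus chosen by the 4 induced levels of each gene, and the control levels were not used. By this rule 59 of the 13535 genes with a sufficient mean were separated, out of 14954 genes in the table. The pairing of cultures 1 with 2 and 3 with 4 was itself chosen after their expression values had been seen. The separation is therefore a description of 4 libraries and carries no test.

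The cells came from one mouse embryonic stem cell line, A2 lox.Cre Bcl6, in which a Bcl6 transgene sits behind a tetracycline-inducible promoter. The stem cells were kept on irradiated mouse embryonic fibroblasts and then differentiated in DDM, a defined default medium, with 400 ng/ml of the hedgehog inhibitor cyclopamine from day 2 and with plain DDM again after day 10. At differentiation day 12, 4 cultures were given 1 µg/ml doxycycline for 24 h to induce Bcl6, and 4 control cultures were given DMSO. All 8 cultures carried the transgene, so the doxycycline itself and the Bcl6 it induced cannot be told apart. The labels number the differentiations 1 to 4 in each group and say nothing more of how independent they were, so every p-value below measures only the spread between these libraries, which may be technical.

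Bcl6 is a zinc finger repressor known from germinal centre B cells and, in the cortex, as a factor that moves progenitors towards neurons. Notch signalling keeps neural progenitors from differentiating: ligands such as Dll1 on a neighbouring cell activate the receptor, the DNA-binding protein Rbpj then switches on Hes genes, and Hes proteins repress proneural genes such as Neurog2 and Neurog1. Radial glia, the progenitors of the embryonic cortex, are recognised by genes such as Fabp7, which several reports have placed downstream of Notch, and D-type cyclins such as Ccnd1 drive their cell cycle.

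The labelled identity was compared with marker genes first. The general progenitor gene Sox2 was at 289, 254, 239 and 246 CPM in controls 1 to 4 and at 264, 262, 264 and 232 CPM in induced cultures 1 to 4, and the groups overlapped. Otx2, a gene of the forebrain and midbrain, was at 233, 219.9, 224 and 198 CPM in the controls and 162, 168, 157 and 157 CPM in the induced cultures. The cortical genes Emx2, Lhx2 and Six3 were present at low levels, with Emx2 at 4.46, 5.31, 4.31 and 3.81 CPM in the controls. Emx1, a defining gene of dorsal cortex, was not among the rows analysed here, so the cortical label could be checked only in part. Genes of other cells were well above 0: the pluripotency factor Pou5f1 was at 614, 558, 525 and 456 CPM in the controls and 435, 483, 467 and 388 CPM in the induced cultures, and the basement membrane collagen Col4a1 at 571, 718, 670.0 and 943 CPM in the controls against 1251, 1280.2, 790.0 and 967 CPM after induction. These are bulk samples, in which fewer cells of a type and less RNA per cell cannot be told apart.

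Read totals, recovered from the table as described under the processing, were 9.42 to 9.74 M reads in the controls and 10.33 to 15.02 M in the induced cultures, with culture 1 the deepest. Induced cultures 1 and 2 were the closest pair of all, with 10 genes at least 2-fold apart, and cultures 3 and 4 differed at 44 genes. Across the sides the count was 151 to 236 genes. Pairs of controls differed at 118 to 730 genes, the most between controls 1 and 3. In control 1 the deviation from the group mean followed transcript length, with a Spearman rho of -0.669 over 13514 genes, which are not independent replicates. In induced cultures 1 to 4 that rho was 0.025, -0.268, -0.006 and 0.214, and for the difference between the sides it was 0.159 with length and -0.115 with GC content.

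The inducible gene did not follow the split. Bcl6 (ENSMUSG00000022508, chromosome 16, 23965052 to 23988852, minus strand, mm10 as for all coordinates here) was at 6.61, 6.01, 7.12 and 6.21 CPM in controls 1 to 4 and at 393, 422, 427 and 325 CPM in induced cultures 1 to 4 (limma log2 fold change 5.90 ± 0.10 SE over all 8 libraries, adjusted p = 6.8e-11). Culture 3 held the most Bcl6 and culture 4 the least, so the sides overlapped, and all 4 induced libraries lay far above every control. The table's reads do not tell the transgene from the endogenous gene, and the level of the protein was not measured.

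**Figure D1:**
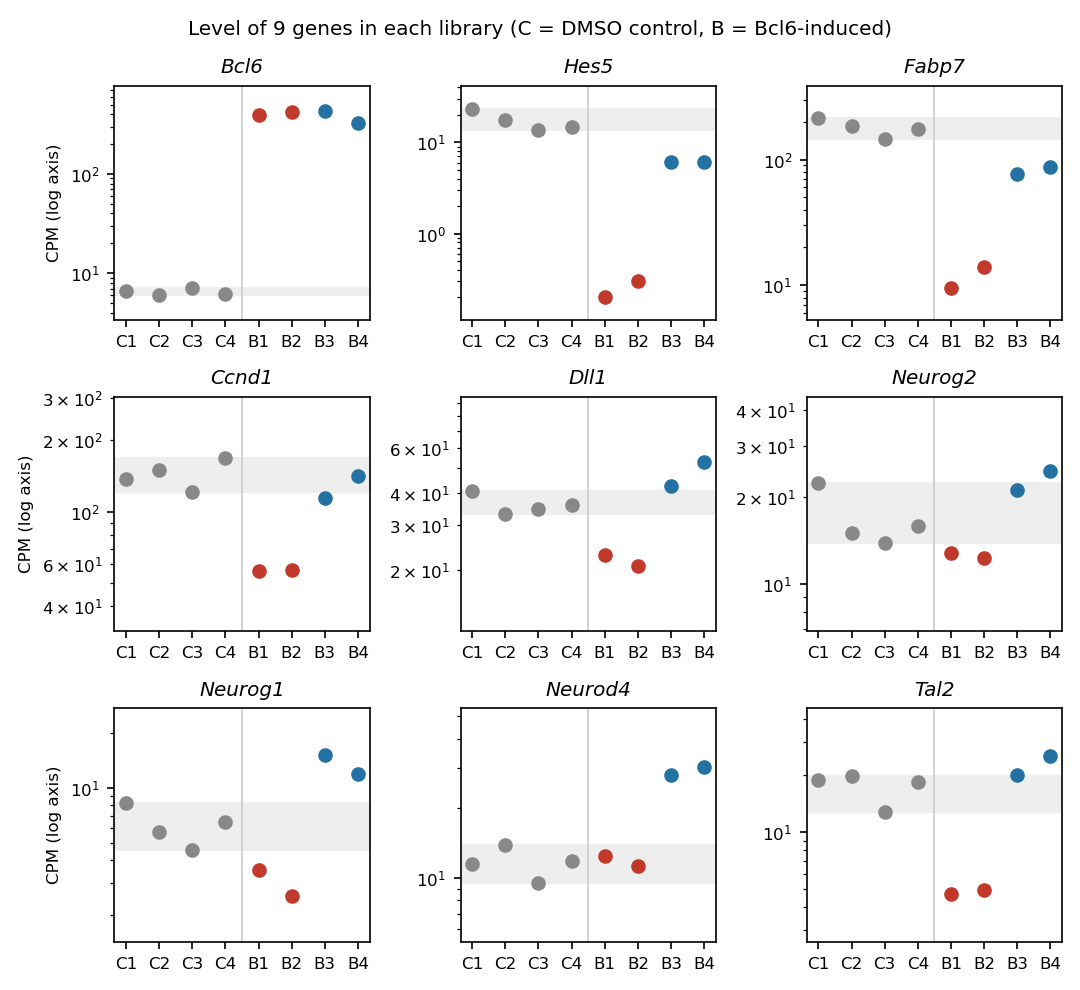
Level of 9 genes in each library, in CPM on a log axis. C1 to C4 are the DMSO controls and B1 to B4 the Bcl6-induced cultures, 1 point is 1 library, and the grey band spans the 4 controls. Bcl6 is alike in all 4 induced libraries, while Hes5 is at 0.200 and 0.301 CPM in B1 and B2 and at 6.06 and 6.12 CPM in B3 and B4.

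Of the 59 separated genes, 48 were lower in induced cultures 1 and 2 and 11 were higher. That is 0.355% and 0.0813% of the 13535 genes that could have met the rule, 0.436% in either direction. With the fold lowered to 1.5, 149 genes were lower in cultures 1 and 2 (1.1%) and 91 were higher (0.672%). At any gap at all the 2 sides did not overlap for 3238 genes lower in cultures 1 and 2 (23.9%) and 4024 genes higher (29.7%), and the median difference between the sides over all genes was -0.016 on the log2 scale. The same 2-fold rule applied to controls 1 and 2 against controls 3 and 4 gave 36 lower genes (0.266%) and 1 higher gene (0.00739%). None of the 59 genes was separated in the controls by that rule, in either direction. At those shares of all genes a count of 0 in 59 is near the background, so nothing is read from it. With 1 induced library left out, so that 1 side holds a single culture, 87 genes were lower without culture 1, 59 without culture 2, 99 without culture 3 and 48 without culture 4, and the higher genes numbered 18, 30, 33 and 51.

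**Figure D2:**
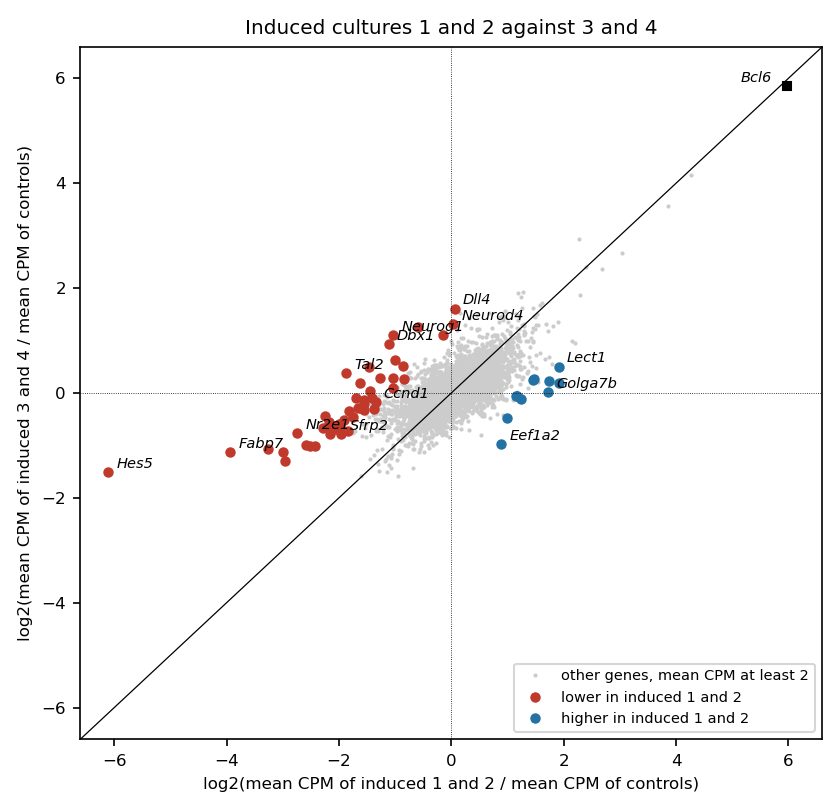
Mean level of induced cultures 1 and 2 (horizontal axis) against mean level of induced cultures 3 and 4 (vertical axis), each as the log2 ratio to the mean of the 4 controls, for genes with a mean of at least 2 CPM over the induced libraries. Red points are the 48 genes lower in cultures 1 and 2, blue points the 11 higher, grey points all others, and the diagonal marks equal levels. Bcl6 sits close to the diagonal and Hes5 lies farthest from it.

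**Figure D3:**
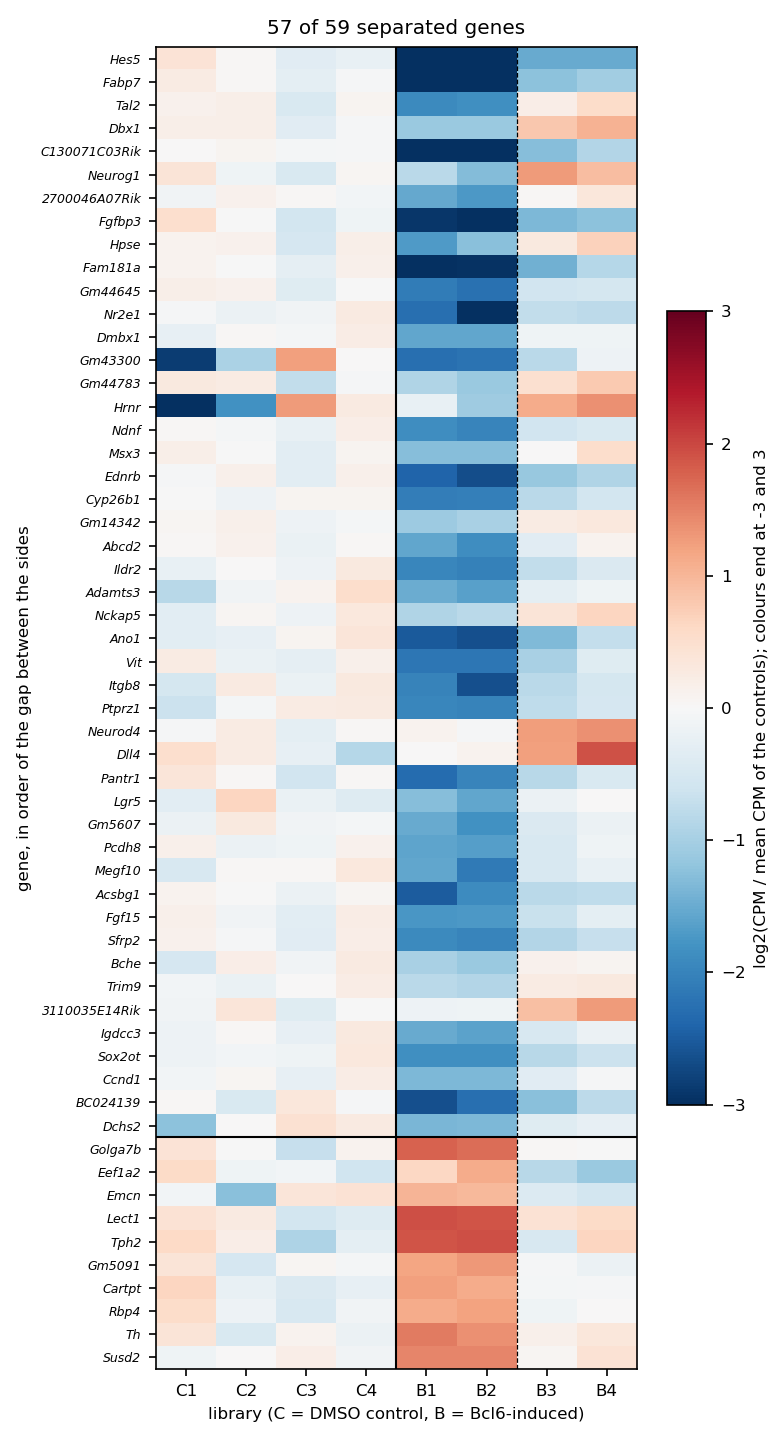
Of the 59 separated genes, 57 (rows) in the 8 libraries (columns), as log2 of CPM over the mean of the 4 controls, with colours ending at -3 and 3. The line across marks the border between the genes lower and the genes higher in induced cultures 1 and 2 (B1, B2). In the upper block B3 and B4 lie below every control like B1 and B2 for 18 genes, and above every control for 11.

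The gene with the widest separation was the Notch target Hes5 (ENSMUSG00000048001, chromosome 4, 154960923 to 154962371, plus strand), a basic helix-loop-helix repressor that holds progenitors undifferentiated. Hes5 was at 23.1, 17.6, 13.8 and 14.9 CPM in controls 1 to 4 and at 0.200, 0.301, 6.06 and 6.12 CPM in induced cultures 1 to 4. These values stand for 217, 167, 134 and 142 reads in the controls and for 3, 3, 68 and 63 reads in the induced cultures. Cultures 1 and 2 held almost no Hes5, and cultures 3 and 4 held less than every control, 2.86-fold and 2.84-fold below the control mean. On reads scaled to library depth, the 4 controls together were 86.5 times culture 1 (95% exact interval 29.5 to 421) and 63.6 times culture 2 (21.7 to 309). Culture 3 was 26.2 times cultures 1 and 2 together (11.4 to 73.8) and culture 4 was 26.5 times (11.5 to 74.9), intervals that cover counting error only. Hes5 was chosen by these same induced values and leads the separated genes, so the intervals are no test of the split.

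The sequence before the start of Hes5 is shown because Hes5 leads the separated genes and Notch acts on it through Rbpj. In the letters that follow, 250 bases before to 50 bases after the annotated start, 5′ to 3′ along the gene's strand (RefSeq, GRCm38.p6), capitals mark the core of the Rbpj motif, TGGGAA, on either strand. The windows of Fabp7, the next gene by separation, and of Neurog1, a proneural gene that lies on the other side of the controls in cultures 3 and 4, are set beside it. Hes5 spans chr4:154960673-154960972 on the plus strand, Fabp7 chr10:57784673-57784972 on the plus strand and Neurog1 chr13:56252131-56252430 on the minus strand.
Hes5: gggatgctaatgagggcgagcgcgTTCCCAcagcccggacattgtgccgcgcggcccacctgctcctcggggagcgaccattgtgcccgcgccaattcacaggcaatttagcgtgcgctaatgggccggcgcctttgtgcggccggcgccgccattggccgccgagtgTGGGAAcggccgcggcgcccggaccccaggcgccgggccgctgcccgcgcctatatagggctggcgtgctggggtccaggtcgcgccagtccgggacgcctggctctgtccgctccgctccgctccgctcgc
Fabp7: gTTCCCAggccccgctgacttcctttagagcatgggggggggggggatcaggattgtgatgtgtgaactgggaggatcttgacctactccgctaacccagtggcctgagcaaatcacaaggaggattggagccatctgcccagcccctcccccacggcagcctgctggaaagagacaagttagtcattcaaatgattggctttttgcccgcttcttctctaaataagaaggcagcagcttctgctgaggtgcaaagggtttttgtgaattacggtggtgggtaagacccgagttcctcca
Neurog1: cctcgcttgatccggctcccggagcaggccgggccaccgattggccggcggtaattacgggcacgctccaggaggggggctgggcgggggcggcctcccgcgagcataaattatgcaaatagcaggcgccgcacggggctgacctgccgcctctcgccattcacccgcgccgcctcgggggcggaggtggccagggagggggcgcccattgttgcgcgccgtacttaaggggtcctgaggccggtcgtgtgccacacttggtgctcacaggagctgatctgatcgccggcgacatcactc

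Hes5 holds TGGGAA at 2 places, which begin 226 bases (minus strand) and 82 bases (plus strand) before the start. Fabp7 holds it once, 249 bases before the start on the minus strand, and the Neurog1 window has no match. Among the genes lower in cultures 1 and 2, 31 had a window, some with more than 1 start, and 8 of their 35 windows held the core, 22.9%. Of the 10 windows of 8 genes higher in cultures 1 and 2, 2 held it, and 3230 of all 13985 windows did, 23.1%. The motif by which Bcl6 itself is known, TTCCTNGAA, searched on both strands with N as any base, was in none of the 35 and none of the 10 windows and in 165 of all windows, 1.18%. A match or its absence describes these letters only.

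The other Notch targets had smaller gaps than Hes5. Of 6 Notch targets with a sufficient mean, Hes5 was the one separated (0.355% of all genes were lower by the rule). With Hes5 3 were at least 1.5-fold lower in cultures 1 and 2 (1.1% of all genes). Hes1, the second main Hes gene of progenitors, was at 38.7, 35.5, 24.9 and 30.2 CPM in the controls and at 30.2, 32.3, 28.9 and 26.6 CPM in induced cultures 1 to 4, and its 4 induced values lay within the range of the controls. Hey1, a related repressor, was at 36.2, 33.7, 23.3 and 29.0 CPM in the controls against 14.7, 12.9, 18.4 and 20.8 CPM after induction, lower than every control in all 4 induced cultures. Nrarp, a feedback inhibitor of Notch, was at 6.71, 4.86, 4.97 and 7.57 CPM in the controls and at 1.60, 2.00, 3.11 and 4.01 CPM in the induced cultures, a gap of 1.55-fold between the sides. The receptor gene Notch1 was at 35.5, 64.4, 89.95 and 101 CPM in the controls against 48.6, 46.7, 73.7 and 77.8 CPM after induction, and its controls spanned a wider range than the induced cultures, with control 1 the lowest. As log2 ratios to the mean of the controls, the 8 measured Notch targets, those of low mean included, averaged -1.91, -1.72, -0.70 and -0.49 in induced cultures 1 to 4, with the controls between -0.27 and 0.12. Hes5 and Heyl, both near 0 in cultures 1 and 2, weigh heavily in this mean, which does not stand for each target. Heyl, of too low a mean for the rule, was at 2.81, 2.56, 1.56 and 3.36 CPM in the controls. In induced cultures 1 to 4 it was at 0.100, 0.200, 1.10 and 1.55 CPM. Mean levels, median differences and sums of lists are over all measured genes of a list throughout. These and the other genes at 1.5-fold named here were chosen after their values were seen.

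3 ligands of Notch were higher in cultures 3 and 4 than in cultures 1 and 2. Dll1 (ENSMUSG00000014773, chromosome 17, 15367354 to 15376872, minus strand), the main ligand of newborn neurons, was at 40.6, 33.2, 34.5 and 36.0 CPM in controls 1 to 4 and at 22.9, 20.7, 42.4 and 52.6 CPM in induced cultures 1 to 4. Cultures 1 and 2 lay below and cultures 3 and 4 above the whole range of the controls, with a gap of 1.85-fold that did not reach the rule. Dll4, a ligand known from vessels and from some neuronal precursors, was separated, with 3.86, 3.21, 2.31 and 1.503 CPM in the controls and 2.76, 2.91, 6.41 and 10.2 CPM in the induced cultures. For Dll4 cultures 1 and 2 lay inside the range of the controls and cultures 3 and 4 lay above it. Dll3, a ligand of cells leaving the progenitor state, was at 28.9, 18.6, 19.01 and 22.6 CPM in the controls against 25.1, 22.5, 41.4 and 41.6 CPM after induction, a gap of 1.65-fold. Lfng, a glycosyltransferase that modifies Notch receptors, was at 20.7, 19.1, 14.0 and 21.8 CPM in the controls against 7.27, 7.06, 12.9 and 15.2 CPM after induction. Of 27 ligands, receptors and modifiers, Dll4 was the one separated gene (0.436% of all genes were separated). With Dll4 6 reached 1.5-fold, all lower in cultures 1 and 2 (1.1% of all genes). The list's median difference between the sides was 0.068 (log2).

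Fabp7 (ENSMUSG00000019874, chromosome 10, 57784881 to 57788450, plus strand), a lipid-binding protein of radial glial cells, came next. Fabp7 was at 214, 185, 146 and 174 CPM in controls 1 to 4 and at 9.47, 14.0, 76.6 and 87.4 CPM in induced cultures 1 to 4, a gap of 5.48-fold. All 4 induced libraries lay below every control. Culture 1 was 18.96-fold and culture 2 12.8-fold below the control mean, and cultures 3 and 4 were 2.35-fold and 2.05-fold below it.

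Of 23 radial glia genes with a sufficient mean, 3 were separated, all lower in cultures 1 and 2 (0.355% of all genes were). Beside Fabp7 these were Nr2e1, a nuclear receptor that maintains neural stem cells, and Ptprz1, a receptor phosphatase of radial glia. Nr2e1 was at 6.06, 5.51, 5.77 and 7.57 CPM in the controls and at 1.30, 0.551, 3.76 and 3.61 CPM in the induced cultures. Ptprz1 was at 39.5, 59.5, 73.3 and 74.7 CPM in the controls against 15.9, 15.5, 36.2 and 43.5 CPM after induction. For Nr2e1 all 4 induced libraries lay below the controls, and for Ptprz1 culture 4 lay within their range. The progenitor factor Sox1 reached a gap of 1.77-fold, with 46.4, 42.0, 37.5 and 52.2 CPM in the controls and 18.4, 18.4, 32.5 and 35.4 CPM in the induced cultures. The glutamate transporter Slc1a3 was alike in the 4 induced cultures: it was at 132, 142, 163 and 128 CPM in the controls and at 86.5, 83.8, 89.4 and 86.6 CPM in the induced cultures, below every control in all 4. For 19 of the 23 genes cultures 1 and 2 lay below cultures 3 and 4 at some gap (23.9% of all genes did), for 3 above (29.7% of all genes), and for 1 the sides overlapped. The mean of the list relative to the controls was -0.92, -0.96, -0.44 and -0.36 (log2) in induced cultures 1 to 4, and its median difference between the sides was 0.392.

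Further separated genes are known from glia and glial progenitors. Ednrb, an endothelin receptor of radial glia and neural crest, was at 59.5, 67.8, 48.7 and 67.9 CPM in the controls and 11.6, 9.72, 27.8 and 32.5 CPM in the induced cultures. Acsbg1, an acyl-CoA synthetase of astrocytes, was at 7.37, 6.76, 6.07 and 7.07 CPM in the controls against 1.203, 1.85, 3.91 and 4.01 CPM after induction. Both were below every control in all 4 induced cultures. Megf10, a phagocytic receptor of astrocytes, was at 24.8, 35.1, 35.2 and 42.6 CPM in the controls against 11.6, 7.92, 24.6 and 29.4 CPM after induction. Itgb8, an integrin subunit through which radial glia activate TGF-beta, was at 43.7, 75.8, 55.1 and 76.8 CPM in the controls against 15.7, 10.1, 35.8 and 43.7 CPM after induction. Culture 2 was the lowest library for both, and culture 4 lay within the range of the controls for Megf10. Fam181a, a gene of little known function that is expressed in the early nervous system, was at 12.2, 11.3, 9.48 and 12.6 CPM in the controls against 1.40, 1.45, 4.21 and 6.32 CPM after induction, below every control in all 4.

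In Neurog1 and Neurod4, both separated, cultures 3 and 4 lay above the controls. Neurog1 (ENSMUSG00000048904, chromosome 13, 56250478 to 56252163, minus strand), a proneural basic helix-loop-helix factor, was at 8.22, 5.71, 4.57 and 6.52 CPM in controls 1 to 4 and at 3.56, 2.56, 15.2 and 11.8 CPM in induced cultures 1 to 4, a gap of 3.33-fold. Cultures 1 and 2 lay below and cultures 3 and 4 above every control. Neurod4, a factor that acts after the proneural genes, was at 11.5, 13.8, 9.48 and 11.9 CPM in the controls against 12.5, 11.3, 27.9 and 30.1 CPM after induction, so that cultures 1 and 2 lay inside the range of the controls. Cultures 3 and 4 held 2.39 and 2.58 times the control mean of Neurod4.

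Neurog2 (ENSMUSG00000027967, chromosome 3, 127633135 to 127635631, plus strand), the main proneural factor of dorsal cortex, showed the same order of the sides with a smaller gap of 1.65-fold and was not separated by the rule. Neurog2 was at 22.3, 15.0, 13.8 and 15.8 CPM in the controls and at 12.8, 12.3, 21.1 and 24.6 CPM in the induced cultures, where culture 4 alone lay above every control. Of the 5 genes proposed as marking the split (Hes5, Fabp7, Ccnd1, Dll1 and Neurog2), 3 met the rule and Dll1 and Neurog2 did not.

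Of 24 proneural and neurogenic genes with a sufficient mean, 3 were separated, Neurog1 and Neurod4 among them, and a further 4 reached 1.5-fold, all lower in cultures 1 and 2. Of all genes 0.355% were lower there by the rule and 1.1% at 1.5-fold. Among the 4, Nhlh1, a helix-loop-helix factor of newborn neurons, was at 15.4, 16.5, 13.3 and 15.1 CPM in the controls and 21.8, 19.7, 39.4 and 44.8 CPM in the induced cultures. Gadd45g, a gene switched on by proneural factors, was at 19.3, 12.5, 10.9 and 17.0 CPM in the controls against 15.3, 14.8, 26.2 and 30.9 CPM after induction. For both, cultures 3 and 4 lay above every control. The list's mean level was 0.27, 0.14, 0.73 and 0.86 (log2) relative to the control mean in induced cultures 1 to 4, and its median difference between the sides was 0.510. Other neurogenic genes were alike in all 4. Eomes, the T-box factor of intermediate progenitors, was at 12.9, 12.8, 13.3 and 13.1 CPM in the controls and 24.3, 23.9, 27.3 and 24.1 CPM in the induced cultures, with every induced library above every control. Scrt1, a repressor of the Snail family in young neurons, was at 12.1, 12.5, 10.5 and 12.3 CPM in the controls against 29.8, 26.9, 28.6 and 29.7 CPM after induction.

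Several separated genes are transcription factors of restricted brain regions or neuron types. Tal2 (ENSMUSG00000028417, chromosome 4, 53779705 to 53788712, plus strand), a helix-loop-helix factor of midbrain GABA neurons, was at 18.9, 19.7, 12.7 and 18.3 CPM in controls 1 to 4 and at 4.66, 4.91, 20.1 and 25.4 CPM in induced cultures 1 to 4. Dbx1 (ENSMUSG00000030507, chromosome 7, 49631499 to 49636849, minus strand), a homeobox gene of progenitors that give rise to interneurons, was at 24.6, 24.6, 17.2 and 21.2 CPM in the controls against 10.1, 10.1, 38.3 and 45.4 CPM after induction. For both genes cultures 1 and 2 lay below and cultures 3 and 4 above every control, with gaps of 4.10-fold and 3.78-fold. The homeobox gene Dmbx1, known from the midbrain, was at 5.76, 6.96, 6.47 and 7.97 CPM in the controls against 2.31, 2.31, 6.21 and 6.22 CPM after induction, and cultures 3 and 4 lay inside the range of the controls. Msx3, a homeobox gene of the dorsal neural tube, was at 6.06, 5.31, 4.31 and 5.66 CPM in the controls against 2.21, 2.20, 5.41 and 7.67 CPM after induction. For Msx3 culture 3 lay inside and culture 4 above the range of the controls.

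No gene of the telencephalic list (17 with a sufficient mean) or of the midbrain and hindbrain list (18) was separated. With 0.436% of all genes separated, a count of 0 in either list is near the background. Lower in cultures 1 and 2 by at least 1.5-fold (1.1% of all genes) were Otx1, Dlx2 and Sp8 in the first list. In the second they were Pax3, Pax5, Irx1 and Irx5. The mean level of the telencephalic list was -0.36, -0.47, 0.22 and 0.25 (log2) in induced cultures 1 to 4, and the controls spanned -0.16 to 0.19. For the midbrain and hindbrain list it was -0.33, -0.40, -0.07 and 0.18, where culture 3 was within the range of the controls (-0.20 to 0.17) and culture 4 just above it. The median differences between the sides were 0.539 and 0.463 (log2), against -0.016 over all genes.

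Fgf15, an FGF ligand of the embryonic forebrain and midbrain, was at 58.8, 49.1, 42.8 and 61.5 CPM in controls 1 to 4 and at 15.7, 16.0, 33.7 and 43.6 CPM in induced cultures 1 to 4. Fgfbp3, a carrier that releases FGFs from matrix, was at 65.6, 45.5, 31.6 and 42.3 CPM in the controls against 6.16, 5.71, 18.1 and 19.8 CPM after induction. Fgfbp3 was below every control in all 4 induced cultures, while Fgf15 in culture 4 reached the lower part of the control range. These were the 2 separated genes among 21 of the FGF pathway and its feedback, where 0.436% of all genes were separated.

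Sfrp2, a secreted modulator of Wnt, was at 76.2, 68.0, 55.4 and 79.5 CPM in the controls and 18.4, 17.6, 38.2 and 43.3 CPM in the induced cultures. Lgr5, the R-spondin receptor that raises Wnt signalling, was at 3.41, 6.66, 3.71 and 3.26 CPM in the controls against 1.75, 1.45, 3.76 and 4.26 CPM after induction. Sfrp2 lay below every control in all 4 induced cultures, and Lgr5 lay below them in cultures 1 and 2 alone. They were the 2 separated genes among 25 Wnt modulators and targets, and none of 27 Wnt ligands and receptors was separated. With 0.436% of all genes separated, a count of 0 in 27 is near the background. Cyp26b1, the enzyme that degrades retinoic acid, was at 14.5, 13.3, 15.5 and 15.5 CPM in the controls against 3.51, 3.56, 8.37 and 9.98 CPM after induction and was the single separated gene among 11 of the retinoic acid pathway.

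Some separated genes encode matrix or surface proteins. Ndnf, a secreted neurotrophic factor, was at 20.7, 19.5, 17.5 and 23.2 CPM in the controls and 5.56, 5.16, 13.7 and 14.6 CPM in the induced cultures. Hpse, the enzyme that cleaves heparan sulphate, was at 2.81, 2.86, 1.86 and 2.96 CPM in the controls against 0.802, 1.10, 3.21 and 4.21 CPM after induction. Adamts3, a procollagen protease, was at 12.4, 20.6, 23.7 and 32.0 CPM in the controls against 7.87, 7.16, 18.1 and 20.2 CPM after induction. Of these, Ndnf lay below every control in all 4 induced cultures, Hpse lay above every control in cultures 3 and 4, and Adamts3 in cultures 3 and 4 lay inside the range of its controls, which span 2.57-fold. The chloride channel gene Ano1 was at 22.0, 23.2, 28.8 and 35.3 CPM in the controls against 4.76, 4.36, 10.9 and 16.6 CPM after induction. The protocadherin Pcdh8 was at 38.4, 30.7, 31.7 and 37.8 CPM in the controls against 11.6, 11.1, 24.8 and 31.9 CPM after induction. Igdcc3, an immunoglobulin superfamily receptor of early neural tissue, was the most abundant separated gene, with 207, 235, 193 and 282 CPM in the controls and 80.7, 75.0, 163 and 202 CPM in the induced cultures.

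Trim9, a ubiquitin ligase of axons, was at 15.0, 13.8, 16.0 and 18.3 CPM in the controls and 9.07, 8.62, 18.6 and 19.5 CPM in the induced cultures. Abcd2, a peroxisomal fatty acid transporter, was at 23.9, 25.6, 20.6 and 23.9 CPM in the controls against 8.02, 6.46, 18.6 and 25.1 CPM after induction. Bche, the enzyme butyrylcholinesterase, was at 5.86, 9.52, 7.73 and 9.97 CPM in the controls against 4.21, 3.81, 8.97 and 8.72 CPM after induction. Of these, Trim9 lay above every control in both cultures 3 and 4. The coding genes Vit, Ildr2, Nckap5 and 3110035E14Rik and the predicted or non-coding genes 2700046A07Rik, Gm44645, Gm44783, Gm14342 and Gm5607 also belong to the 48, with gaps from 2.05-fold in 3110035E14Rik to 2.96-fold in 2700046A07Rik. The separated genes below the largest gaps that belong to no list were chosen for mention after their values were seen.

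Long non-coding RNAs were part of the group. C130071C03Rik (ENSMUSG00000050334, chromosome 13, 83721381 to 83884194, plus strand) was at 22.7, 23.5, 21.4 and 22.0 CPM in controls 1 to 4, the tightest controls of any separated gene, and at 2.56, 2.10, 9.17 and 12.2 CPM in induced cultures 1 to 4. Pantr1, a non-coding RNA transcribed beside the Pou3f3 gene, was at 40.7, 32.3, 21.2 and 32.5 CPM in the controls against 6.41, 8.07, 17.6 and 23.1 CPM after induction. Sox2ot, whose gene overlaps Sox2, was at 12.9, 13.4, 13.1 and 17.6 CPM in the controls against 3.96, 4.01, 8.07 and 9.12 CPM after induction, while Sox2 itself had the narrow range given above. How reads were assigned by strand is not given in the sources used here, so overlapping genes such as these may share reads. Of the 48 genes lower in cultures 1 and 2, 39 were protein coding and 9 were not, and 83.1% of all 59 were protein coding against 94.6% of the genes with a sufficient mean.

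The cyclin Ccnd1 (ENSMUSG00000070348, chromosome 7, 144929931 to 144939925, minus strand), which drives cells through G1, met the rule narrowly. Ccnd1 was at 137, 149.5, 121 and 169 CPM in controls 1 to 4 and at 56.5, 56.9, 114 and 141 CPM in induced cultures 1 to 4, a gap of 2.01-fold. Cultures 1 and 2 lay below every control, culture 3 just below and culture 4 within their range. Ccnd2, the other D-type cyclin of cortical progenitors, was at 371, 475, 451 and 554 CPM in the controls against 211, 213, 333 and 381 CPM after induction, a gap of 1.56-fold. No other gene of 25 in the G1 and S phase list reached 1.5-fold, by which 1.1% of all genes were lower and 0.672% higher in cultures 1 and 2. None of 22 genes of G2 and M phase did, and Top2a, a gene of dividing cells, was at 1034, 1163, 1177 and 1204 CPM in the controls and 1022, 993, 1048 and 1065 CPM in the induced cultures. The mean level of the G2 and M phase list was -0.17, -0.19, -0.09 and -0.10 (log2) in induced cultures 1 to 4, with controls between -0.01 and 0.02.

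**Figure D4:**
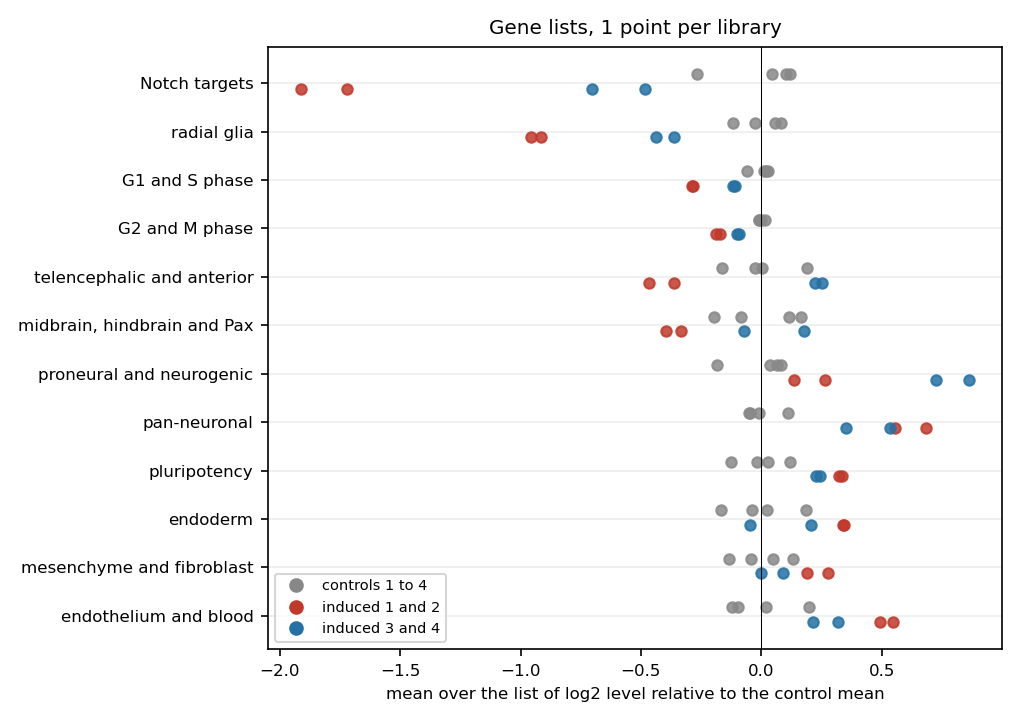
Mean level of 12 gene lists in each library, as the mean over the list of the log2 level relative to the control mean. Grey points are the 4 controls, red points induced cultures 1 and 2, and blue points induced cultures 3 and 4. Notch targets lie at -1.91 and -1.72 in cultures 1 and 2 and at -0.70 and -0.49 in cultures 3 and 4, while the proneural list is highest in cultures 3 and 4. Hes5 and Heyl, both near 0 in cultures 1 and 2, weigh heavily in the Notch target mean.

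In each of the 11 genes higher in cultures 1 and 2, those cultures lay above every control, a position held by 22.6% of all genes. The rule used the induced values, so nothing is read from this. Golga7b, a palmitoylation cofactor of neurons, was at 1.60, 1.202, 0.753 and 1.30 CPM in controls 1 to 4 and at 4.16, 3.91, 1.25 and 1.203 CPM in induced cultures 1 to 4, the widest gap of the 11 at 3.12-fold. Eef1a2, the elongation factor of neurons and muscle, was at 2.91, 1.803, 1.86 and 1.30 CPM in the controls against 3.01, 4.26, 1.10 and 0.902 CPM after induction. For Eef1a2 cultures 3 and 4 lay below every control, as in 11.1% of all genes. With cultures 1 and 2 also above every control, that joint position was held by 0.236% of all genes. Lect1, a cartilage protein that inhibits vessel growth, was at 1.70, 1.503, 0.853 and 0.952 CPM in the controls against 4.76, 4.66, 1.70 and 1.86 CPM after induction, with all 4 induced values at or above the highest control. The remaining genes had cultures 3 and 4 inside or astride the range of the controls.

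Genes of transmitters and peptides stood among the 11. Tph2, the enzyme of serotonin synthesis in neurons, was at 1.60, 1.202, 0.552 and 0.852 CPM in the controls and 3.91, 4.01, 0.752 and 1.65 CPM in the induced cultures. Th, the enzyme of dopamine synthesis, was at 4.06, 2.25, 3.31 and 2.76 CPM in the controls against 9.07, 7.97, 3.46 and 3.91 CPM after induction. The neuropeptide gene Cartpt was at 13.9, 7.61, 6.57 and 7.57 CPM in the controls against 21.1, 19.3, 8.52 and 8.72 CPM after induction. In cultures 3 and 4 Th and Cartpt lay inside the range of the controls, and for Tph2 culture 4 lay just above it. The retinol carrier Rbp4, which is also made by yolk sac endoderm, was at 17.2, 10.6, 8.43 and 10.9 CPM in the controls against 25.3, 27.3, 10.7 and 11.8 CPM after induction. Rbp4 lay inside the range of the controls in cultures 3 and 4. Susd2, a membrane protein, was at 7.77, 8.57, 9.68 and 7.87 CPM in the controls against 23.4, 23.5, 8.87 and 11.5 CPM after induction. Emcn, an endothelial sialomucin, was at 2.15, 0.952, 2.91 and 3.06 CPM in the controls against 4.61, 4.46, 1.70 and 1.55 CPM after induction. The predicted gene Gm5091 had 7.27, 7.82, 3.11 and 2.81 CPM in induced cultures 1 to 4.

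Of 39 pan-neuronal genes none was separated, against 0.436% of all genes, so that a count of 0 is near the background. At 1.5-fold 3 were higher in cultures 1 and 2, Mapt, Syt4 and Slc17a6, and none was lower, against 0.672% and 1.1% of all genes. The difference from the proneural list was not tested. Slc17a6, a vesicular glutamate transporter, was at 8.07, 8.12, 10.4 and 9.87 CPM in the controls and 27.5, 24.2, 9.42 and 15.9 CPM in the induced cultures. Mapt, the axonal protein tau, was at 30.5, 29.3, 32.7 and 30.5 CPM in the controls against 62.9, 58.6, 29.8 and 36.4 CPM after induction, so that cultures 3 and 4 were near the controls. The neuronal tubulin Tubb3 was at 189, 173, 128 and 189 CPM in the controls against 291, 299, 335 and 384 CPM after induction, above every control in all 4 induced cultures. Dcx, the microtubule protein doublecortin of young neurons, was at 98.6, 142, 137 and 176 CPM in the controls against 315, 275, 236 and 308 CPM after induction, again above every control in all 4. For 19 of the 39 genes cultures 1 and 2 lay above cultures 3 and 4 at some gap (29.7% of all genes), for 7 below (23.9%), and for 13 the sides overlapped. The list's mean level was 0.68, 0.55, 0.35 and 0.53 (log2) in induced cultures 1 to 4.

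Beside the separated genes, others were picked for moving alike in all 4 induced cultures. In the comparison of the 4 induced with the 4 control cultures by limma on log2(value + 1), with Benjamini-Hochberg adjustment over 14954 genes, 1019 genes were called at an adjusted p under 0.05, 6.81% of those tested, 681 higher (4.55%) and 338 lower (2.26%). By limma 1697 genes were called without control 1, 359 without control 2, 308 without induced culture 1, 350 without induced culture 2 and 649 without induced culture 3. The highest induced library was under 1.5 times the lowest in 53 of the 93 genes called at least 2-fold higher and in 21 of the 73 called at least 2-fold lower. The share of all genes with so narrow an induced range is not given here, so nothing is read from these counts. Separated genes made up 16 of the 73 lower and 0 of the 93 higher genes. Of all genes with a sufficient mean, 0.355% were separated as lower in cultures 1 and 2 and 0.436% in either direction. A count of 0 in 93 is near that background. No call on a separated gene is read here, since the rule chose genes for their spread within the induced group. Among these alike genes the smallest p values by limma belonged to Bcl6, T, Tfap2c, Scrt1, Cntn2 and Dgkk, which rose, and to Fam46a, Enpp2, A2m, Abca4, Chst3 and Gpr139, which fell. They were chosen for a call, a narrow induced range and a small p. Nothing is therefore read from their alikeness, and the choice favours small errors and p values in those given below.

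The mesodermal T-box gene T was at 23.3, 18.9, 23.8 and 17.5 CPM in the controls and 59.5, 61.4, 61.9 and 56.8 CPM in the induced cultures (limma log2 fold change 1.53 ± 0.11 SE, adjusted p = 0.00011). Tfap2c, an AP-2 factor of germ cells and trophectoderm, was at 36.1, 32.5, 36.1 and 34.2 CPM in the controls against 79.8, 80.7, 77.8 and 68.2 CPM after induction (adjusted p = 0.00011 by limma). Cntn2, an adhesion molecule of axons, was at 28.4, 29.3, 36.9 and 35.6 CPM in the controls against 80.1, 76.8, 73.9 and 86.5 CPM after induction. In each of these genes every induced library lay above every control.

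Enpp2, the enzyme that makes lysophosphatidic acid, fell from 694, 744, 717 and 574 CPM in the controls to 296, 316, 321 and 248 CPM in the induced cultures (limma log2 fold change -1.21 ± 0.10 SE, adjusted p = 0.00024). Abca4, a retinoid transporter, was at 35.9, 46.5, 66.0 and 41.5 CPM in the controls against 16.1, 15.0, 16.8 and 14.7 CPM after induction. The sulphotransferase Chst3 was at 8.62, 8.12, 8.33 and 9.22 CPM in the controls against 3.31, 3.01, 2.96 and 4.21 CPM after induction. Every induced library of these 3 genes lay below every control, and cultures 1 and 2 lay between cultures 3 and 4 in each.

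The 48 genes lower in cultures 1 and 2 differed in where cultures 3 and 4 lay. In 43 of them cultures 1 and 2 were both below every control, a position held by 13.0% of the 13535 genes. Since the rule used the induced values, nothing is read from that count or from the counts of positions that follow. The shares of all genes beside them are for scale only. In 18 of the 48, Hes5, Fabp7, Nr2e1, Ednrb, Sfrp2 and Cyp26b1 among them, cultures 3 and 4 were below every control too, against 6.22% of all genes with all 4 induced libraries below. In 8, among them Tal2, Dbx1, Neurog1, Hpse and Trim9, cultures 1 and 2 were below and cultures 3 and 4 above every control (0.155% of all genes), and in Neurod4, Dll4 and 3110035E14Rik cultures 1 and 2 were inside and cultures 3 and 4 above the controls. In 21 of the 48 neither culture 3 nor culture 4 was below the controls. Within the sides, culture 4 was higher than culture 3 in 45 of the 48 genes, with Neurog1, Nr2e1 and Bche the exceptions, and culture 2 was higher than culture 1 in 18.

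The controls bounded how far these genes vary without induction. Over the 48 genes the highest control was a median of 1.46 times the lowest, against 1.34 over all genes with a sufficient mean. The highest induced library of the 48 was a median of 3.40 times the lowest. The rule itself sets that induced spread at 2-fold or more, so nothing is read from its excess over the controls. In 40 of the 48 the controls spanned less than 2-fold. The others were Fgfbp3, Gm43300, Gm44783, Hrnr, Adamts3, Dll4, Lgr5 and Dchs2, named after their values were seen. Gm43300, a predicted gene, was at 1.30, 4.86, 21.8 and 9.47 CPM in the controls and 1.95, 2.00, 5.36 and 8.37 CPM in the induced cultures. Hrnr, known as an epidermal protein, was at 0.150, 0.451, 3.81 and 1.90 CPM in the controls against 1.35, 0.752, 3.41 and 4.11 CPM after induction. For these 2 genes, and for Dchs2, the controls varied more than the induced cultures did. Of the 11 genes higher in cultures 1 and 2, 7 had controls that spanned at least 2-fold, where 8.24% of all genes did. Over all 11 the median span of the controls was 2.12-fold.

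**Figure D5:**
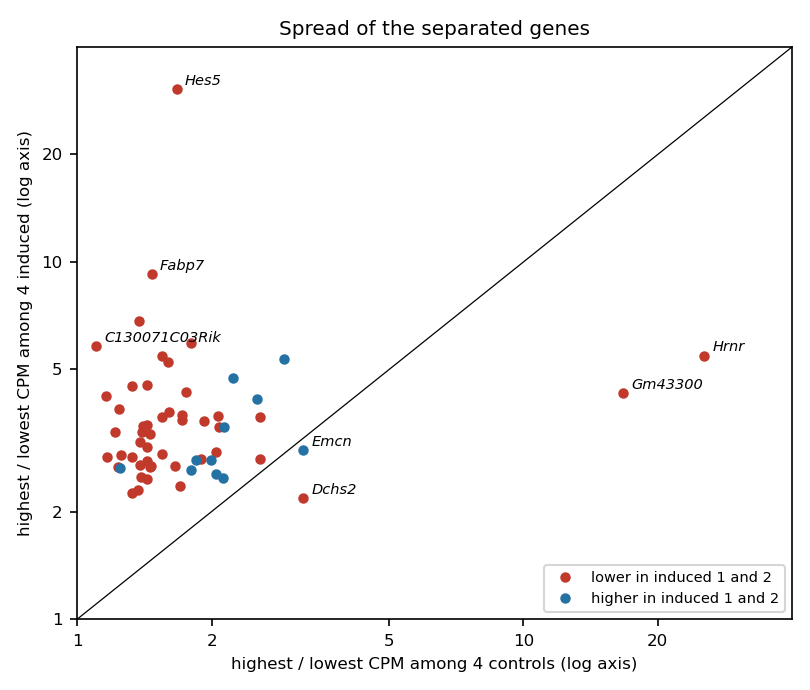
Highest over lowest CPM among the 4 controls (horizontal axis) and among the 4 induced cultures (vertical axis) for the 59 separated genes, both on log axes, with the diagonal at equal spread. Red points are lower and blue points higher in induced cultures 1 and 2. Most points lie above the diagonal with controls under 2-fold, Hes5 and Fabp7 lie highest, and Hrnr, Gm43300, Dchs2 and Emcn lie below it. The rule places every point at 2-fold or more on the vertical axis, so nothing is read from a place above the diagonal.

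At the threshold the rule divides genes of nearly equal values. Just inside it, BC024139 was at 1.00, 1.30, 2.61 and 3.61 CPM in induced cultures 1 to 4. Dchs2, an atypical cadherin, was at 2.81, 2.86, 5.71 and 6.12 CPM there, and Ccnd1 had the values given above. Just outside it on the same side, Gm16010 was at 2.41, 1.55, 4.81 and 5.46 CPM. The dorsal midline ligand Wnt3a was at 2.56, 2.10, 5.41 and 5.06 CPM with a gap of 1.98-fold, and the third of them was Gm45009 at 1.96-fold. For genes higher in cultures 1 and 2, Susd2 and Th were just inside and Patl2, C78283 and Lrrc75b just outside, the last of these at 4.46, 3.91, 1.95 and 1.96 CPM. Of all separated genes, 19 of the 48 lower genes and 7 of the 11 higher genes had under 30 reads in some induced library, the fewest being 3 for Hes5 and 8 for Tph2.

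The median transcript of the 48 lower genes was 3315 bases and that of the 11 higher genes 2084, against 3449 over all genes with a sufficient mean. The median GC content was 49.5% and 54.0%, against 49.7%. With the trend on length and GC taken off every library, 50 genes were lower in cultures 1 and 2, 47 of them the same, and 11 higher, 9 of them the same.

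Markers of other cell types were compared between the sides in the same way. Of 22 endoderm genes with a sufficient mean, none was separated, near the background of 0.436% of all genes. At some gap 15 were higher in cultures 1 and 2 (29.7% of all genes), 2 were lower (23.9%) and 5 overlapped. The summed level of all 24 measured endoderm genes was 4413 and 4473 CPM in cultures 1 and 2, 2995 and 3458 CPM in cultures 3 and 4, and 2642 to 3424 CPM in the controls. The matrix genes Col4a1, Sparc and Col4a2, at 1251, 807 and 667 CPM in culture 1, weigh heavily in this sum. It does not stand for each gene. Among transcription factors, Gata4 and Gata6 were higher in cultures 1 and 2, Foxa1 and Foxa2 were the 2 lower genes, and Sox17 and Sox7 overlapped. These factors were named after their values were seen. The transthyretin gene Ttr, a gene of yolk sac and choroid plexus, was the one that reached 1.5-fold, with 12.9, 10.9, 8.73 and 9.37 CPM in the controls and 18.3, 18.8, 10.8 and 11.8 CPM in the induced cultures. Col4a1, given above, was highest in cultures 1 and 2 as well. No endoderm gene was at 0 reads in any library, and the lowest level of any was 0.551 CPM.

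For mesenchyme and fibroblasts, the kind of cell used as feeders, 11 of 23 genes were higher in cultures 1 and 2 at some gap (29.7% of all genes), 3 were lower (23.9%) and the sums were 2751, 2609, 2440 and 2554 CPM in induced cultures 1 to 4 and 1710 to 2504 CPM in the controls. For endothelium and blood 7 of 10 were higher at some gap and 1 was lower, against the same shares, Emcn among them by the rule, with sums of 152, 157, 129 and 147 CPM in induced cultures 1 to 4 and 99.4 to 127 CPM in the controls. None of 22 pluripotency genes or 12 primordial germ cell genes was separated or reached 1.5-fold. At some gap 9 of the 22 were higher in cultures 1 and 2 and 2 were lower, against the same shares. Of the 12, 7 were higher and 0 were lower. Among 15 genes of epithelium and trophectoderm 8 were higher and 0 were lower, and among 10 of mesoderm and streak 1 was higher and 3 were lower. Nanog was at 165, 161, 173 and 190.2 CPM in the controls and 239, 239, 224 and 232 CPM in the induced cultures. The part of other cells in the separation of Hes5, Fabp7 and the rest was not tested.

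In all, 624 genes of 35 lists had a sufficient mean, and 16 of them were separated as lower and 1, Emcn, as higher in cultures 1 and 2. Over all genes the shares were 0.355% and 0.0813%. Of the lists, 10 held a separated gene and 25 held none. With 0.436% of all genes separated, a list with none is near the background. Among those with none were the hedgehog pathway, where Ptch1, the receptor and target of the pathway, was at 178, 254, 255 and 279 CPM in the controls and 209.5, 188, 213 and 247 CPM in the induced cultures, and the BMP, TGF-beta and Nodal list. The corepressors through which Bcl6 acts were also without a separated gene, and their list's mean level was 0.01, 0.02, 0.07 and 0.03 (log2) in induced cultures 1 to 4.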

How the data were processed

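RNA was measured in 8 cultures, 4 Bcl6-induced and 4 DMSO controls, with a stranded mRNA kit per the labels' protocols. Per the submitters' processing notes, the authors' tools included edgeR 3.20.1, the aligner STAR 2.5.3a and the counter HTSeq 0.9.1, and the build was mm10. The deposited values are treated as a score: whole numbers that the authors had scaled to a common total, about 20 M in each library, and rounded. Decimal commas had become column breaks, and all 14954 lines were rejoined from 36 cells under 24 header names. Dates stood in place of 22 symbols, and 14924 genes matched the GENCODE M21 annotation by identifier. Within a library 99.1% to 99.8% of values lay on whole multiples of one step, against 44.0% to 72.9% on a step shifted as a comparison, which gives read totals of 9.42 to 15.02 M.

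CPM is the deposited value relative to its library total. Because the values are not raw counts, induced and control groups were compared with limma 3.58.1 (R 4.3.3) on log2(value + 1) with a mean-variance trend, all 8 libraries, no covariate and Benjamini-Hochberg adjustment over 14954 genes, called at 0.05. The separation rule has no test. Intervals of read ratios are exact at 95%. Both scripts were tested on simulated data. Tables were handled in Python 3.11.15 with numpy 2.4.6, pandas 2.3.3 and scipy 1.17.1.

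The members, the grouping and the gene lists were chosen with earlier results of these data known. Genes named in the text are Bcl6, the 5 proposed markers, in each direction the 15 separated genes of largest gap with an established symbol, separated genes in a list, the 3 genes on each side of the threshold, the 6 alike genes of smallest p in each direction, and up to 4 abundant genes of a list without a separated gene. Others are stated as chosen later, and 2 separated genes are counted but not reported by name here. Controls and induced cultures of the same number were not treated as pairs.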

Additional observations from a re-analysis of the deposited data

Results flagged for a closer look

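In 4 of 146 checks, made on 73 named genes in each group of 4 libraries, 1 control stood apart from the other 3 by Dixon's criterion for 4 samples. Chance alone flags about 1 in 20 groups. Cartpt was highest in control 1 at 13.93 CPM, with the other controls at 7.61, 6.57 and 7.57 CPM. Hpse was lowest in control 3 at 1.856 CPM, with the others at 2.81, 2.86 and 2.96 CPM. Lgr5 was highest in control 2 at 6.662 CPM, with the others at 3.41, 3.71 and 3.26 CPM. Sox2ot was highest in control 4 at 17.64 CPM, with the others at 12.9, 13.4 and 13.1 CPM. No induced library stood apart in this way among the genes checked. For separated genes the rule itself largely prevents this, since it asks for 2 induced libraries on each side of a gap. Nothing is therefore read from that absence.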

How the results depend on the processing

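Scaling by median of ratios or upper quartile, a pseudocount and the mean over all 8 libraries kept the separated genes within 46 to 51 lower and 9 to 13 higher. The fold mattered most: 149 lower and 91 higher genes at 1.5-fold, 6 and 1 at 3-fold. A minimum of 10 CPM left 20 and 3, a minimum of 1 CPM gave 17 higher, and a ratio of the side means gave 91 and 34. Without 1 induced library there were 48 to 99 lower and 18 to 51 higher genes. In the controls 1.5-fold gave 164 lower and 12 higher genes with 1 member separated the same way. Leaving out 1 control gave 32 to 371 lower genes, 2 to 19 higher genes and 0 to 2 members. Taking off the trend on transcript length and GC, an alternative chosen after seeing the data, left 0 higher control genes and 1 member. The causes of these shifts were not tested, beyond the fewer libraries or other thresholds that define them.

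By limma, array weights called 2507 genes, 1643 higher and 864 lower. Leaving out 1 library gave 308 to 1697 called genes, 211 to 1146 higher and 93 to 551 lower. Median-of-ratios scaling called 536 higher and 424 lower genes, and upper quartile scaling 501 and 474. Same-numbered cultures share only a number: their deviations correlated at 0.044, 0.035, -0.023 and 0.313, and the control that correlated best with induced cultures 1 to 4 was 1, 1, 2 and 4. With the replicate number as a block limma called 827 genes, 531 higher and 296 lower. Without induced culture 4 the higher genes (51) outnumbered the lower (48). Low reads limit the gaps of genes such as Hes5, which had 3 reads in each of induced cultures 1 and 2.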
